A study of Bos taurus with 15 samples.

Results

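The genes described here are 20 of the 21218 genes in the count table of bovine dominant follicle (DF) oocytes. They are the rows whose symbol begins with SNRP, LSM, SF3, SRSF, HNRNP, PRPF, RBM, DDX or DHX in a list that the study drew up. That list holds 1829 gene identifiers, 1741 of them with a symbol, that differed between DF oocytes and oocytes over 120 µm in diameter from the ovarian cortex, and it was drawn up on 11 of the oocytes analysed here. The difference from oocytes over 120 µm is therefore what chose the genes and is not a result. Time points within the DF oocytes were not compared in that choice. It used the same oocytes, however, so differences between their time points are not independent of it. No gene beginning with SRSF, HNRNP or PRPF was on the list. The 20 genes fall into 5 SNRP and LSM genes, 3 SF3 genes, 5 RBM genes and 7 DDX and DHX genes. On the study's list 9 of them stood on the side of the DF oocytes (4 SNRP and LSM, 2 SF3, 2 RBM and 1 DDX gene) and 11 on the side of the oocytes over 120 µm.

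The spliceosome removes introns from nuclear transcripts. It is built from small nuclear ribonucleoproteins (snRNPs), each an RNA held in a ring of small Sm or LSm proteins, from larger subunits such as the SF3b complex that recognises the branch point, and from RNA helicases that rearrange the RNAs during each cycle. The full-grown oocyte makes little new RNA and lives on stored transcripts, whose poly(A) tails are lengthened or shortened as meiosis resumes, so that a poly(A)-selected measurement can move with tail length as well as with abundance.

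All oocytes came from dominant follicles of crossbred, oestrus-synchronised beef heifers that had received GnRH, a progesterone device and prostaglandin, and were stripped of cumulus cells before Smart-seq2 sequencing of polyadenylated RNA. The 3 groups were 6 oocytes collected 24 h before ovulation (T1), 4 collected 19 to 23 h after oestrus detection (T2) and 5 collected 2 h before ovulation (T3). The titles give T2 as hours before ovulation, whereas the treatment labels and the study's methods give it as hours after oestrus, and the latter was used. Each oocyte came from a different animal, so p-values measure the spread between animals. Some of the animals were given a further dose of GnRH. The study's methods name them beside the T3 collection, in wording that may also cover T2. T1 animals were slaughtered a day earlier than the others, so in comparisons with T1 time, treatment and day of slaughter cannot be told apart. T2 and T3 shared a day of slaughter, but time and GnRH treatment cannot be told apart between them. The methods do not give the hours between T2 and T3. The animals came from earlier trials, and which trial gave which oocyte is not given in the sources used here.

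Tests used the 11 oocytes that the study kept after quality control, 5 of T1, 4 of T2 and 2 of T3. Values are given in all 15. Library totals ran from 175263 counts (T3.5) to 4894970 (T1.5). The 4 oocytes outside the fits were T1.4, with 2874041 counts but 7433 detected genes, and T3.1, T3.3 and T3.5, with 620910, 271763 and 175263 counts and 5326, 6029 and 2686 detected genes. In T3.1, OOSP2, an oocyte-secreted protein gene, alone took 116723 counts. All 20 genes passed the filter on low counts. In T1 between 18 and 20 of them had at least 1 count, and in each T2 oocyte all 20 had. T3.2 and T3.4 had counts for 18 each, T3.1 for 15, T3.3 for 16 and T3.5 for 9. After every library was thinned to 175263 counts the numbers were 16 to 20 in T1, 18 to 19 in T2, and 15, 18, 15, 15 and 9 in T3.1 to T3.5. Together the 20 genes took 0.244% (T3.5) to 0.808% (T1.1) of the counts of a library. A count of 0 allowed a level of up to 0.632 CPM (T1.5) to 12.7 CPM (T3.3), taking 3 counts as the limit, for counting error only. Levels are CPM (counts scaled to library size) after TMM scaling over all 15 oocytes and are not corrected for transcript length, so they are compared between oocytes and not between genes.

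No gene of the 20 was called in any pair of time points by edgeR's quasi-likelihood test, for which a call needs a Benjamini-Hochberg adjusted p under 0.05 and a log2 fold change over 1.5 in either direction. The same test called 0% of the 10198 genes tested from T1 to T2, 0% from T2 to T3 and 0% from T1 to T3, although 1242, 1761 and 927 genes had an unadjusted p under 0.05. LSM7 was nearest to a call. It lay lower in T2 than in T1, by 2.75 on the log2 scale, and higher in T3 than in T2, by 3.49. SF3B1 lay higher in T2 than in all oocytes of T1, and SF3B6 lay lower in T2 than in T1 with overlapping values. Of the 7 DDX and DHX genes, 6 had lower fitted levels in T3 than in T2 (4 with all 15 oocytes), none past the threshold. Over all genes tested, 5389 of 10198 were lower in T3 than in T2. Among the other genes on the over 120 µm side of the study's list, where 6 of these 7 stood, 678 of 945 were.

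**Figure D1:**
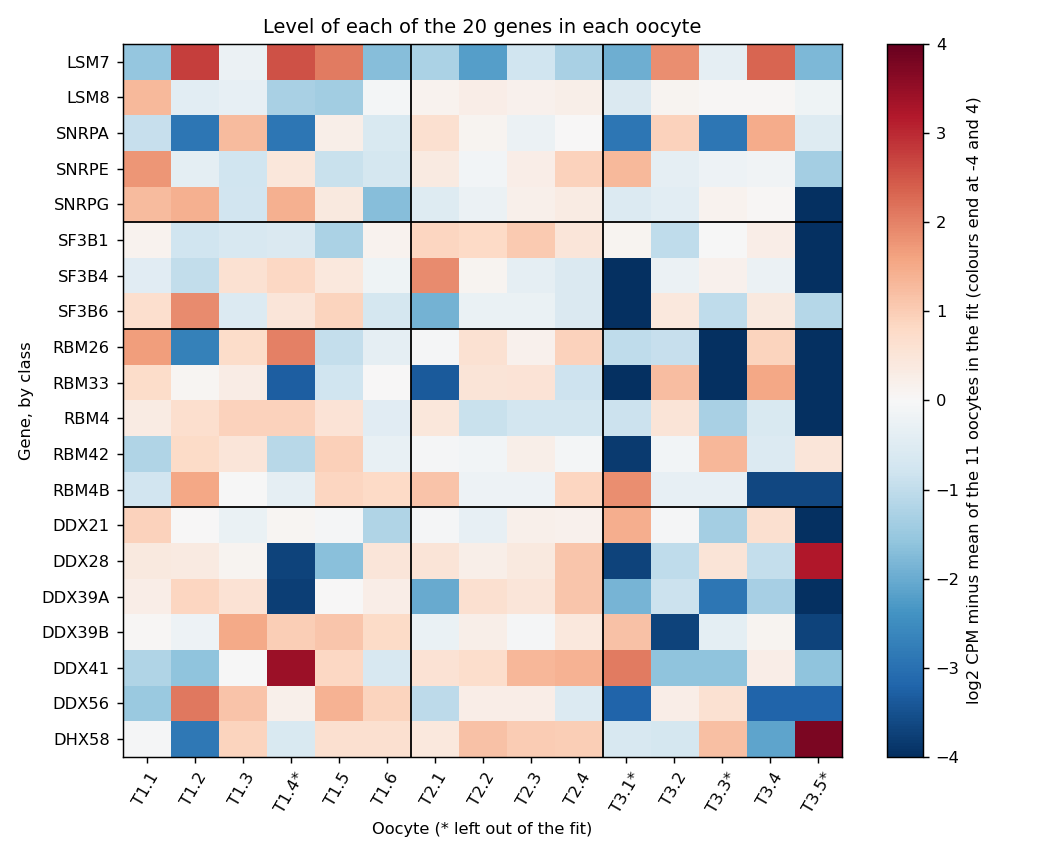
Level of each of the 20 genes (rows, by class) in each of the 15 oocytes (columns, by time point) as log2 CPM minus the gene's mean over the 11 oocytes in the fit, with colours ending at -4 and 4. LSM7 changes colour within T1 and again between T2 and the T3 oocytes in the fit, and most of the darkest blue cells lie in T3.1, T3.3 and T3.5, which were left out of the fit and have counts for 15, 16 and 9 of the genes.

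Among the small ring proteins, SNRPE and SNRPG encode Sm proteins shared by the core of most spliceosomal snRNPs. SNRPE (ENSBTAG00000050130) measured 4890, 1100, 828, 1960, 770 and 878 CPM in T1.1 to T1.6, with a median of 991. It measured 1850, 1340, 1720 and 2720 CPM in T2.1 to T2.4, and 3540, 1130, 1240, 1320 and 558 CPM in T3.1 to T3.5. T1.1 stood above every other oocyte, and the 3 time points overlapped over all oocytes. The fitted log2 difference of SNRPE was 0.16 ± 0.57 (SE) from T1 to T2, -0.61 ± 0.75 from T2 to T3 and -0.46 ± 0.72 from T1 to T3, with adjusted p of 0.957, 0.727 and 0.930, and the last of these turned to 0.43 without T1.1.

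SNRPG (ENSBTAG00000053210) measured 1280, 1420, 310, 1410, 682 and 163 CPM in T1.1 to T1.6, with a median of 980. It measured 367, 447, 610 and 659 CPM in T2 and 358, 390, 588, 541 and 0 CPM in T3. T1 held both the highest and, apart from T3.5, the lowest values, and T2 and T3 lay inside its range. Its fitted log2 differences were -0.61 ± 0.56 (SE), -0.13 ± 0.72 and -0.75 ± 0.72 in the same order, with adjusted p of 0.758, 0.952 and 0.839. SNRPA (ENSBTAG00000009077) encodes an RNA-binding protein of the U1 snRNP and was near the limit of detection, with at most 58 counts in a library. It measured 2.83, 0, 16.3, 0, 7.37 and 3.69 CPM in T1 (median 3.26), 10.2, 6.75, 5.18 and 6.37 CPM in T2 and 0, 12.5, 0, 18.8 and 4.07 CPM in T3. Both T3 oocytes in the fit lay above all of T2 while the other 3 T3 oocytes lay below it. Its fitted differences of 0.20, 1.16 and 1.36 had standard errors of 1.04, 1.3 and 1.23, and with all 15 oocytes the comparisons with T3 were 0.15 (from T2) and 0.57 (from T1).

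LSM7 and LSM8 are related ring proteins with different partners. LSM7 is shared by the nuclear LSm ring that binds U6 snRNA and by the cytoplasmic ring that takes part in mRNA decay, and LSM8 belongs to the nuclear ring. LSM7 (ENSBTAG00000004521) measured 38.4, 782, 98.2, 685, 493 and 35.1 CPM in T1.1 to T1.6, with a median of 296. In T2.1 to T2.4 it measured 46.7, 24.4, 65.6 and 46.3 CPM, and in T3.1 to T3.5 it measured 28.9, 425, 88.9, 583 and 32.6 CPM. The T1 oocytes divided into 3 high ones (T1.2, T1.4 and T1.5) and 3 lower ones, of which T1.1 and T1.6 lay within the range of T2. The T3 oocytes in the fit, T3.2 and T3.4, were high, and the 3 outside it lay between 28.9 and 88.9 CPM, so that T3 as a whole overlapped T2.

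By the quasi-likelihood test the log2 difference of LSM7 was -2.75 ± 0.85 (SE) from T1 to T2 (adjusted p = 0.176), 3.49 ± 0.98 from T2 to T3 (adjusted p = 0.0869) and 0.75 ± 0.93 from T1 to T3 (adjusted p = 0.899). It was the only one of the 20 that other tests called. edgeR's likelihood ratio test called it from T1 to T2 (adjusted p = 0.0347) and from T2 to T3 (0.00991), when it called 3.54% and 6.87% of all genes tested. DESeq2 called it in the same pairs (0.0208 and 0.0155) when it called 3.25% and 6.24% of genes. The quasi-likelihood test without a filter on low counts also called it (0.0440 and 0.0184), at 1.63% and 2.59% of genes. From T1 to T3 the likelihood ratio test called none of the 20 and 1.36% of all genes. Over 17 alternatives the adjusted p of LSM7 ran from 0.0208 to 0.682 from T1 to T2 and from 0.00991 to 0.575 from T2 to T3. With all 15 oocytes the likelihood ratio test, added after the values were seen, no longer called LSM7 in either pair (adjusted p = 0.128 and 0.160), when it called 0.552% and 2.32% of genes. With all 15 oocytes in the quasi-likelihood fit the T2 to T3 difference was 2.38 ± 0.99 (adjusted p = 0.299), and the T1 to T3 difference turned to -0.55. Without T1.2 the T1 to T2 difference was -1.77. Leaving out T1.1 gave calls of LSM7 in both pairs, at 3.72% and 3.12% of genes, and leaving out T1.2 gave one from T2 to T3, at 4.01%.

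LSM8 (ENSBTAG00000012649) measured 624, 189, 202, 104, 96.9 and 245 CPM in T1.1 to T1.6, with a median of 196. It measured 279, 306, 292 and 299 CPM in T2 and 169, 274, 267, 264 and 228 CPM in T3. T2 was narrower than T1, with an SD of 0.08 in log2 CPM against 0.93 in the 5 T1 oocytes of the fit. All T3 oocytes lay below all T2 oocytes in these values, by a small margin that was lost when the 11 oocytes were scaled alone, and T1 spanned both. The fitted log2 differences were 0.10 ± 0.46 (SE), -0.10 ± 0.60 and 0.01 ± 0.58, with adjusted p of 0.969, 0.957 and 0.999.

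**Figure D2:**
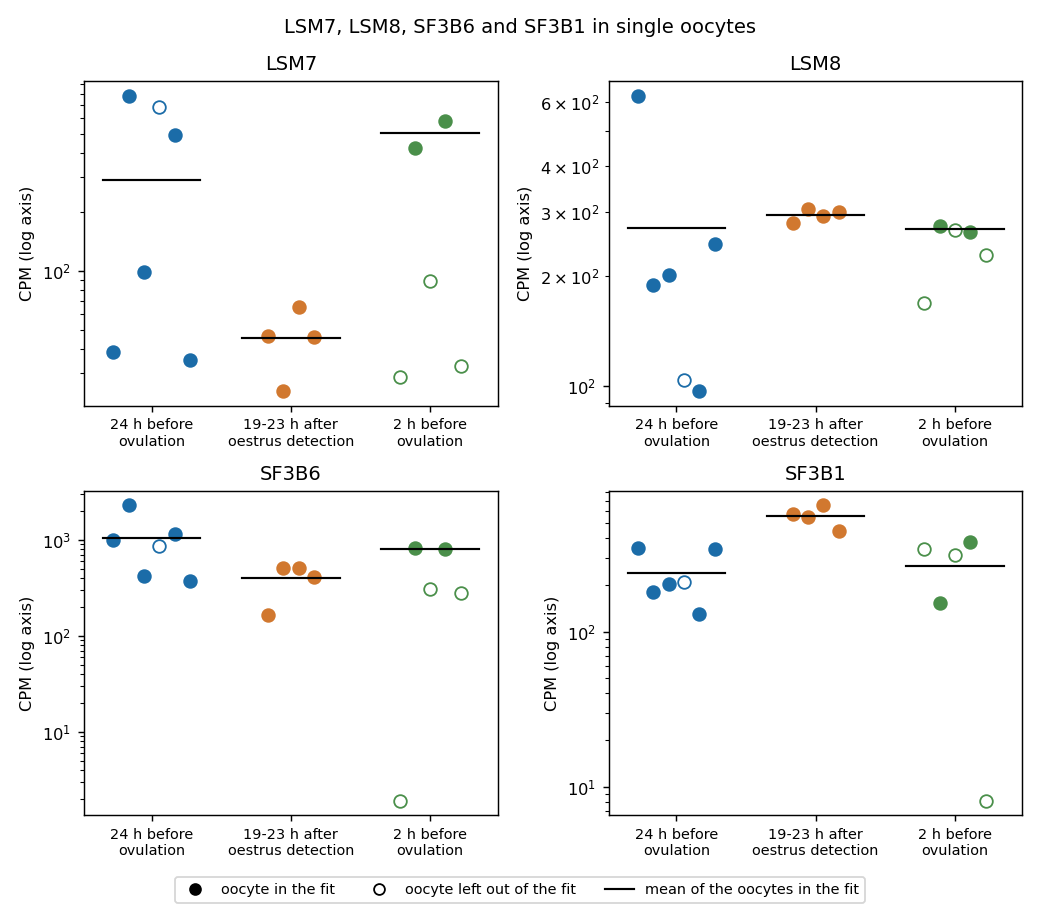
CPM (log axis) of LSM7, LSM8, SF3B6 and SF3B1 in each oocyte at the 3 time points, with filled points for the 11 oocytes in the fit, open points for the 4 left out and lines at the mean of the filled points. LSM7 is split in T1 and in T3, from 35.1 to 782 CPM and from 28.9 to 583 CPM, while T2 stays between 24.4 and 65.6 CPM, and SF3B1 in T2 lies between 444 and 652 CPM, above every other oocyte.

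The ratio of LSM7 to LSM8 counts within a library needs no scaling between libraries. The pair was chosen after the values were seen, and the ratio is a description without a test. In T1.1 to T1.6 it was 0.0616, 4.14, 0.486, 6.55, 5.08 and 0.143. In T2 it was 0.168, 0.0797, 0.225 and 0.155, and in T3.1 to T3.5 it was 0.170, 1.55, 0.333, 2.21 and 0.143. The 3 T1 oocytes with the highest LSM7 had the 3 lowest LSM8 levels of that group. The ratio was above 1 in T1.2, T1.4, T1.5, T3.2 and T3.4 and did not exceed 0.486 in the other 10 oocytes.

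The SF3 genes encode subunits of the SF3b complex of the U2 snRNP. SF3B1 (ENSBTAG00000008915) is its large scaffold subunit, which encloses the branch point helix. It measured 348, 180, 202, 209, 129 and 343 CPM in T1.1 to T1.6, with a median of 205. It measured 573, 550, 652 and 444 CPM in T2 and 339, 153, 313, 376 and 8.14 CPM in T3. Every T2 oocyte lay above every T1 and every T3 oocyte, whether 11 or all 15 oocytes were used. By the quasi-likelihood test the log2 difference was 1.19 ± 0.41 (SE) from T1 to T2 (adjusted p = 0.230), -1.04 ± 0.56 from T2 to T3 (adjusted p = 0.360) and 0.15 ± 0.51 from T1 to T3 (adjusted p = 0.980). No alternative called it from T1 to T2, with adjusted p between 0.0813 and 0.979. Without T3.4 the T2 to T3 difference was -1.90, and without T3.2 it was -0.67.

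SF3B6 (ENSBTAG00000003407), a small subunit that lies at the branch point, measured 983, 2280, 421, 860, 1140 and 374 CPM in T1.1 to T1.6, with a median of 922. It measured 164, 512, 511 and 413 CPM in T2 and 1.92, 815, 305, 795 and 277 CPM in T3. T1 and T2 overlapped through T1.3 and T1.6. T3.2 and T3.4 lay above all of T2, and the value of T3.1 rested on 1 count. The log2 difference was -1.44 ± 0.57 (SE) from T1 to T2 (adjusted p = 0.305), 1.04 ± 0.69 from T2 to T3 (adjusted p = 0.457) and -0.40 ± 0.70 from T1 to T3 (adjusted p = 0.942). Without T1.2 the T1 to T2 difference was -0.81, and with all 15 oocytes the comparisons of SF3B6 with T3 were 0.20 (from T2) and -1.11 (from T1).

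SF3B4 (ENSBTAG00000012495), a subunit with RNA recognition motifs, was low, at 10.7, 7.03, 23.0, 26.8, 20.2 and 12.9 CPM in T1 (median 16.6), 57.8, 16.1, 11.5 and 9.76 CPM in T2, and 0, 12.5, 16.9, 12.4 and 0 CPM in T3. T2.1 stood above all other oocytes and the remaining values overlapped. The fitted log2 differences were 0.64 ± 0.73 (SE), -0.89 ± 0.98 and -0.25 ± 0.93, the T1 to T2 difference was -0.17 without T2.1, and with all 15 oocytes the others were -1.40 and -0.94. The counts of SF3B6 divided by those of SF3B1, again a pair chosen after the values were seen, were 2.83, 12.7, 2.09, 4.12, 8.83 and 1.09 in T1. They were 0.286, 0.931, 0.784 and 0.932 in T2, and 0.00568, 5.33, 0.973, 2.11 and 34.0 in T3. All T1 ratios lay above all T2 ratios, and T3.1 and T3.5, each with at most 2 counts for 1 of the genes, marked the ends of the T3 range. SF3B1 alone was already free of overlap between T1 and T2, so the separation of the ratio is not a further result. The ratios of SNRPE to SNRPG, DDX39A to DDX39B and RBM4 to RBM4B were also computed, and all overlapped between T1 and T2.

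**Figure D3:**
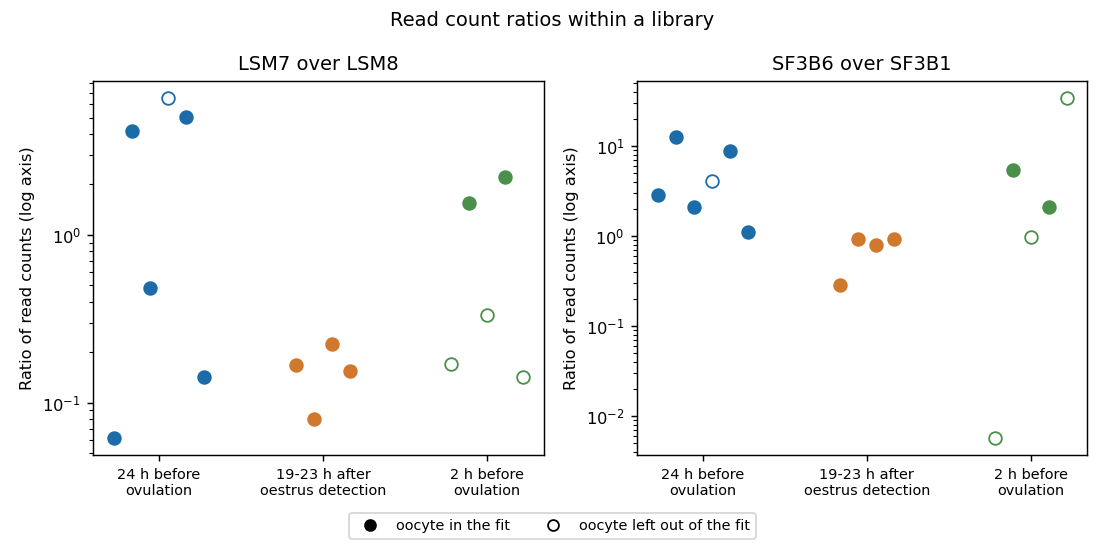
Ratio of read counts of LSM7 to LSM8 and of SF3B6 to SF3B1 within each library (log axes) at the 3 time points, with filled points for oocytes in the fit and open points for those left out. The SF3B6 to SF3B1 ratio is 1.09 to 12.7 in T1 and 0.286 to 0.932 in T2, and the LSM7 to LSM8 ratio is 0.0797 to 0.225 in T2 and reaches 6.55 in T1.

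The RNA helicases were a mixed class, of which several are better known outside splicing. DDX21 acts in the nucleolus on ribosomal RNA, as does DDX56, DDX28 serves the mitochondrial ribosome, DDX39A and DDX39B act in mRNA export and early spliceosome assembly, DDX41 associates with the spliceosome and with innate sensing of DNA, and DHX58 encodes LGP2, a cytoplasmic sensor of double-stranded RNA. DDX21 (ENSBTAG00000014558) measured 212, 112, 91.2, 118, 107 and 47.1 CPM in T1 (median 109), 107, 88.0, 127 and 125 CPM in T2 and 306, 107, 42.3, 171 and 0 CPM in T3. The groups overlapped, and T3 held the highest and the lowest value. Its fitted log2 differences were -0.06 ± 0.44 (SE), 0.35 ± 0.57 and 0.29 ± 0.55, with adjusted p of 0.981, 0.802 and 0.944.

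DDX39A (ENSBTAG00000021820) measured 45.4, 69.1, 57.0, 1.85, 38.1 and 45.2 CPM in T1 (median 45.3), 8.5, 59.1, 52.9 and 81.5 CPM in T2 and 9.62, 20.5, 4.23, 14.5 and 0 CPM in T3. No T3 oocyte exceeded 20.5 CPM, whereas all T1 oocytes other than T1.4 and all T2 oocytes other than T2.1 lay above that. The log2 difference was -0.04 ± 0.57 (SE) from T1 to T2, -1.50 ± 0.80 from T2 to T3 (adjusted p = 0.353) and -1.54 ± 0.78 from T1 to T3 (adjusted p = 0.563). The last of these was the lowest adjusted p of the 20 genes between T1 and T3. DDX39A and DDX39B are close paralogues, and how the study's counting divided reads between them is not given in the sources used here.

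DHX58 (ENSBTAG00000046580) measured 26.5, 2.89, 51.9, 17.6, 42.8 and 43.4 CPM in T1 (median 34.6), 36.5, 62.0, 56.4 and 54.3 CPM in T2 and 17.3, 16.5, 63.5, 5.56 and 383 CPM in T3. The T3 oocytes in the fit lay below all of T2, and T3.3 and T3.5 lay above it. The log2 difference from T2 to T3 was -2.21 ± 0.97 (SE; adjusted p = 0.255) in the 11 oocytes, -3.33 without T3.2 and 1.12 ± 1.08 in all 15. The value of T3.5 rested on 94 counts in the smallest library.

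The other helicases were low. DDX28 (ENSBTAG00000004290) ranged from 0 to 16.6 CPM in T1, 13.8 to 26.3 in T2 and 0 to 114 in T3, and DDX39B (ENSBTAG00000014490) from 9.93 to 34.0, 9.35 to 15.7 and 0 to 26.9. DDX41 (ENSBTAG00000015187) ranged from 0 to 30.5, 3.4 to 6.79 and 0 to 11.5 CPM, and DDX56 (ENSBTAG00000010602) from 2.2 to 37.2, 3.4 to 9.78 and 0 to 12.7 CPM. From T2 to T3 their fitted log2 differences were -1.72, -0.98, -1.93 and -0.49 for DDX28, DDX39B, DDX41 and DDX56, with standard errors of 1.02, 1.23, 1.95 and 1.35. Of the 2 T3 oocytes in the fit, T3.2 had no count of DDX39B or DDX41 and T3.4 none of DDX56, so a single oocyte decided these values. With the oocyte at 0 left out they were -0.11, -1.08 and 0.41 for DDX39B, DDX41 and DDX56. With it as the only T3 oocyte they were -8.05, -6.77 and -7.26, values set by the prior count of the fit. They were -0.35, -0.79 and -0.62 with all 15 oocytes. The median over the 7 DDX and DHX genes was -0.04 from T1 to T2, -1.50 from T2 to T3 and -1.54 from T1 to T3, and DDX21 was the exception to the sign in both comparisons with T3. With all 15 oocytes, DDX28 (0.84 and 1.61) and DHX58 (1.12 and 1.84) also had the opposite sign in both, and the class median from T2 to T3 was -0.35.

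The RBM genes encode RNA-binding proteins with RNA recognition motifs. RBM4 and RBM4B are close paralogues that act in alternative splicing and translation. RBM4 (ENSBTAG00000031688) measured 80, 101, 121, 122, 94.0 and 46.2 CPM in T1 (median 97.6), 88.4, 34.1, 38.0 and 38.2 CPM in T2 and 34.6, 91.6, 25.4, 41.9 and 0 CPM in T3. All T1 oocytes lay above 3 of the 4 T2 oocytes, and T2.1 lay inside the range of T1. The log2 difference was -0.88 ± 0.49 (SE) from T1 to T2 (adjusted p = 0.522), 0.47 ± 0.62 from T2 to T3 and -0.41 ± 0.62 from T1 to T3. The comparisons of RBM4 with T3 were -0.29 and -1.22 with all 15 oocytes.

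RBM42 (ENSBTAG00000013440) measured 40.6, 163, 132, 43.5, 186 and 76.6 CPM in T1 (median 105), 91.8, 88.7, 112 and 90.0 CPM in T2 and 5.77, 87.6, 241, 65.0 and 134 CPM in T3. T2 lay inside the range of both other groups. Its fitted log2 differences were -0.38 ± 0.47 (SE), -0.29 ± 0.61 and -0.67 ± 0.60, with adjusted p of 0.846, 0.850 and 0.813. The comparisons of RBM42 with T3 turned to 0.29 (from T2) and 0.10 (from T1) with all 15 oocytes. RBM26 (ENSBTAG00000017573), known for its part in nuclear RNA surveillance, measured 190, 8.27, 98.5, 243, 30.3 and 46.2 CPM in T1 (median 72.3), 56.9, 92.2, 67.3 and 115 CPM in T2 and 28.9, 31.3, 0, 111 and 0 CPM in T3. T1 held both the highest value and 1 of the lowest, and the fitted differences of 0.15, -0.20 and -0.05 were below their standard errors of 0.68, 0.89 and 0.86. With all 15 oocytes the comparisons of RBM26 with T3 were -1.22 and -1.51, and without T3.4 they were -1.45 and -1.27.

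RBM33 (ENSBTAG00000010243) ranged from 0.925 to 29.6 CPM in T1 and from 0.850 to 25.9 CPM in T2. In T3 it was at 41.8 and 52.6 CPM in T3.2 and T3.4, above every other oocyte, and had no counts in T3.1, T3.3 and T3.5. Its log2 difference was 1.65 ± 0.93 (SE) from T2 to T3 (adjusted p = 0.382) and 1.29 ± 0.88 from T1 to T3 (adjusted p = 0.704), and 0.39 and 0.28 with all 15 oocytes. RBM4B (ENSBTAG00000000423) ranged from 5.98 to 33.5 CPM in T1, 9.21 to 25.5 in T2 and 0 to 42.3 in T3, with log2 differences of -0.22 ± 0.93, -1.87 ± 1.33 and -2.09 ± 1.32. It had no counts in T3.4 and T3.5. The comparisons of RBM4B with T3 were -0.43 and -0.47 with all 15 oocytes and -0.96 and -1.06 without T3.4. With T3.4 as the only T3 oocyte they were -8.44 and -8.50, again set by the prior count.

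**Figure D4:**
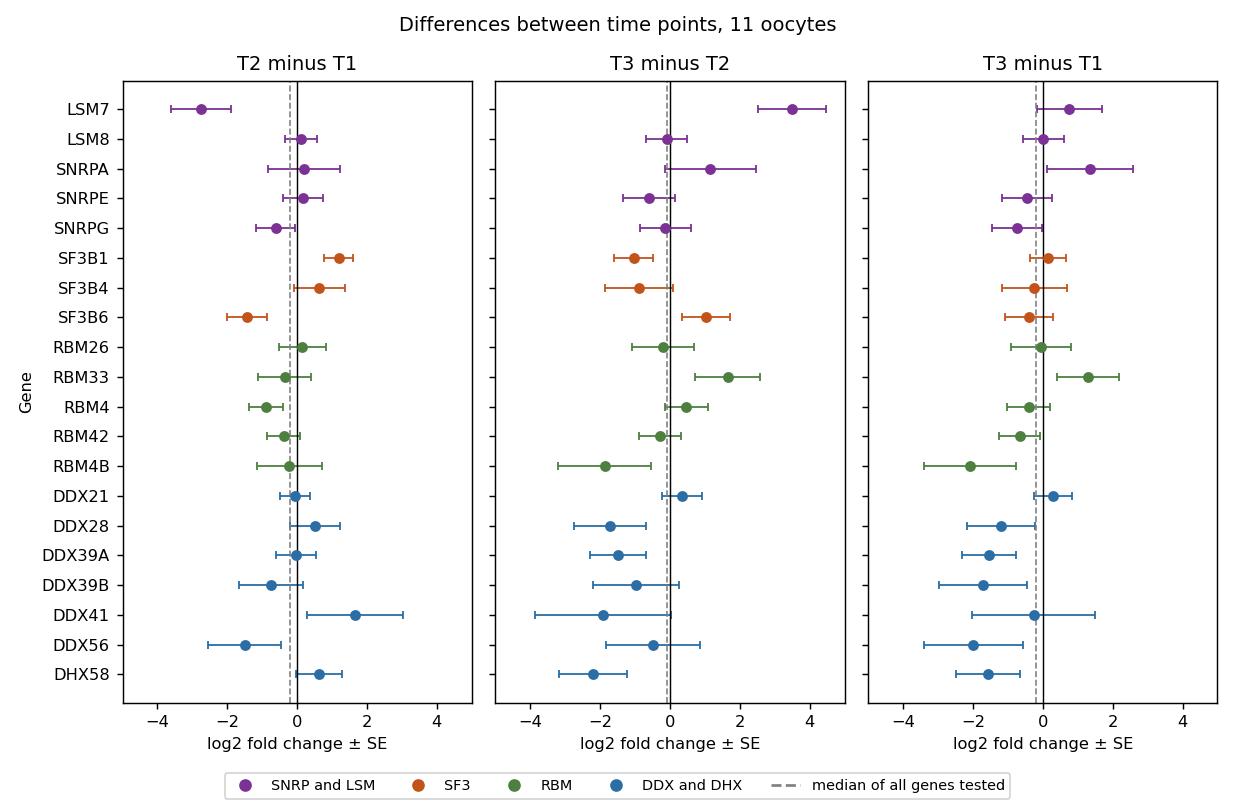
Log2 fold change with its standard error for each of the 20 genes in the 3 pairs of time points (edgeR quasi-likelihood fit on 11 oocytes), coloured by class, with the dashed line at the median of all genes tested (-0.20, -0.10 and -0.21). LSM7 lies furthest from 0 in T2 minus T1 (-2.75) and T3 minus T2 (3.49). In both comparisons with T3, 6 of the 7 DDX and DHX genes lie below 0 (4 in a fit of all 15 oocytes). Of all 10198 genes tested, 5389 lie below 0 in T3 minus T2 and 5943 in T3 minus T1.

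At an unadjusted p under 0.05, SF3B1 was the only one of the 20 genes higher in T2 than in T1 (2.77% of all genes tested were higher at that level), and LSM7 and SF3B6 were lower (9.41%). From T2 to T3, LSM7 was higher (9.03%) and DHX58 lower (8.24%). From T1 to T3 none of the 20 passed in either direction (1.62% higher and 7.47% lower). These counts of 0 to 2 of 20 lie near the background shares.

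The number of genes whose groups did not overlap, over the 11 oocytes, was read against the same background. From T1 to T2, SF3B1 alone was higher without overlap (2.02% of all genes tested) and none was lower (2.26%). From T2 to T3, with only 2 T3 oocytes, LSM7, RBM33, SF3B6 and SNRPA were higher, 4 of 20 against 16.1% of genes, and DDX28, DDX41, DHX58, RBM42, RBM4B, SF3B1 and SNRPE were lower, 7 of 20 against 18.9%. From T1 to T3, RBM33 was higher (3.83%) and DDX39A lower (5.18%). When all 15 oocytes were used and scaled together, SF3B1 was higher in T2 than in T1 (1.6% of all genes tested) and none of the 20 was lower (1.79%). From T2 to T3, SF3B1 and LSM8 were lower, 2 of 20 against 9.35% of genes, and none was higher (0.48%). From T1 to T3 none was higher (0.0196%) or lower (0.941%). The counts over 11 oocytes used factors computed from those 11 alone, under which LSM8 in T3.2 (log2 CPM 8.16) lay above T2.1 (8.14), so LSM8 is free of overlap only under the scaling over 15.

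The spread between oocytes was smaller in T2 than in T1. The SD of log2 CPM was lower in T2 for 16 of the 20 genes, and for 81.3% of all genes tested, so the 20 genes did not stand apart from the rest. Their median SD was 0.93 in T1 and 0.43 in T2, against 1.23 and 0.63 over all genes tested. The exceptions were DDX39A, RBM33, RBM4 and SF3B4, each with a T2.1 value that lay apart from the other T2 oocytes.

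The small SNRP and LSM genes were compared with the helicases and with the RBM genes as the difference between class means of log2 CPM in each oocyte. Only the change of this difference between oocytes is read, because the genes differ in length. The difference between SNRP and LSM and DDX and DHX was 3.85, 3.61, 2.59, 3.86, 3.08 and 2.19 in T1.1 to T1.6 (median 3.34), 3.46, 2.47, 2.73 and 2.70 in T2 and 3.05, 4.84, 3.23, 5.01 and 2.70 in T3. T3.2 and T3.4 lay above all other oocytes, and T3.1, T3.3 and T3.5 lay within the range of T1.

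Scaled over the 11 oocytes alone, the mean difference was 3.08 in T1, 2.85 in T2 and 5.01 in T3. T2 differed from T1 by -0.23 ± 0.38 (SE), with overlap (0.19 without LSM7, and 0.14 without LSM7 in all 15), T3 from T2 by 2.16 ± 0.23 and T3 from T1 by 1.93 ± 0.32, both without overlap among the 11 oocytes. Over all 15 oocytes the last 2 values were 0.93 and 0.57. The standard errors of the comparisons with T3 take the T3 spread from only 2 oocytes. Scaled over 15, the SD of those 2 was 0.12, against 1.08 in all 5 T3 oocytes. In T3.2 and T3.4 the SNRP and LSM mean was 7.87 and 8.20 against 7.01 to 7.49 in T2, and the DDX and DHX mean was 3.03 and 3.18 against 3.86 to 4.79. The higher SNRP and LSM mean rested on LSM7. Without LSM7, a setting added after the values were seen, that mean was 7.65 and 7.95 in T3.2 and T3.4, inside the T2 range of 7.60 to 7.97, and the median log2 difference of the 5 genes from T2 to T3 was -0.10, with 3 of the 5 negative. The class difference without LSM7 was 4.62 and 4.77 in T3.2 and T3.4 and 2.52 to 4.48 in the other 13 oocytes, and T3 differed from T2 by 1.47 and from T1 by 1.65. Counts of 0 moved with the lower helicase mean, since DDX39B and DDX41 had none in T3.2 and DDX56 none in T3.4. Without these 3 genes, also left out after the values were seen, the helicase mean was 4.48 and 4.2 in T3.2 and T3.4. It was 4.85 to 5.97 in T2 and 3.13 (T1.4, outside the fits) to 5.52 in T1. The part of the counts of 0 in the difference was not tested. T3 then differed from T2 by 1.92 and from T1 by 1.54 in the 11 oocytes, by 1.23 and 1.26 when LSM7 was left out too, and by 0.87 and 0.11 in all 15. No p-value was computed for these scores.

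The difference between the SNRP and LSM and the RBM means was 2.41, 2.21, 1.54, 2.60, 2.14 and 1.3 in T1 (median 2.18), 2.42, 1.77, 2.12 and 2.2 in T2 and 2.87, 2.54, 3.65, 3.41 and 3.49 in T3. All 5 T3 oocytes lay above all of T2, and above all of T1 other than T1.4. Over the 11 oocytes T2 differed from T1 by 0.22 ± 0.25 (SE). With the T3 spread again taken from 2 oocytes, T3 differed from T2 by 0.87 ± 0.48 and from T1 by 1.09 ± 0.51. Without LSM7 these values were 0.64, 0.18 and 0.81 in the 11 oocytes and 0.59, 0.60 and 1.19 in all 15. T3.2 (2.32) then lay below all of T2 (2.36 to 2.86), and the other 4 T3 oocytes (3.16 to 3.72) above it. Without T3.4 the values against T2 and T1 were 0.41 and 0.63, without T3.2 they were 1.34 and 1.56, and with medians the value against T1 was 0.22. In T3.1, T3.3 and T3.5 low detection moved with it, since their RBM means were 3.63, 3.15 and 1.36 against 4.79 to 5.33 in the other T3 oocytes, and 1, 2 and 4 of the 5 RBM genes had no count there. Its part in the difference was not tested.

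**Figure D5:**
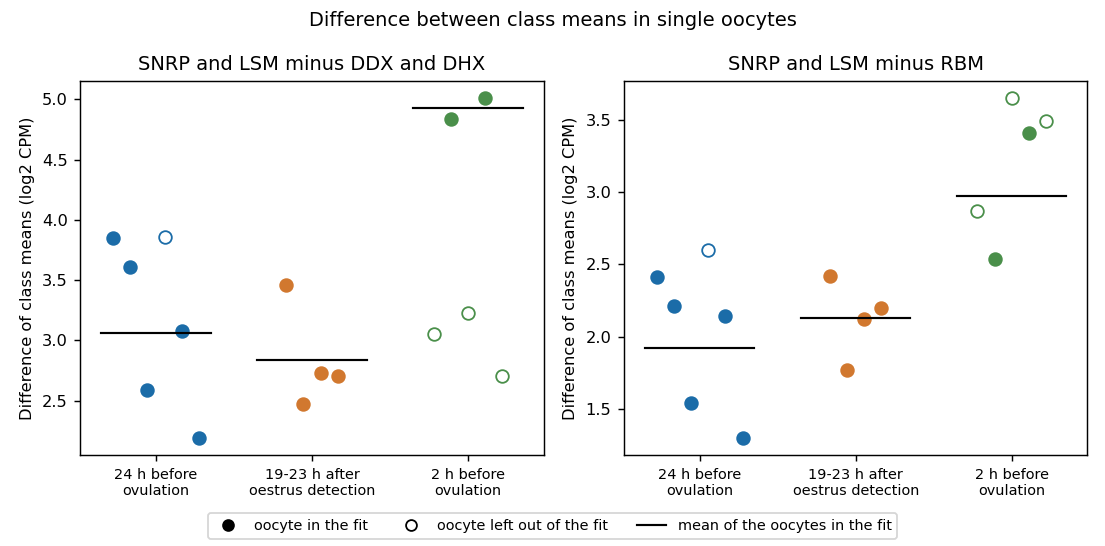
Difference between the mean log2 CPM of the 5 SNRP and LSM genes and that of the 7 DDX and DHX genes (left) or the 5 RBM genes (right) in each oocyte, with filled points for oocytes in the fit, open points for those left out and lines at the mean of the filled points. T3.2 and T3.4 reach 4.84 and 5.01 in the left panel while the other 13 oocytes lie between 2.19 and 3.86.

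Class and side of the study's list were linked, since 4 of the 5 SNRP and LSM genes stood on the DF side and 6 of the 7 DDX and DHX genes on the side of the oocytes over 120 µm. The median log2 difference from T2 to T3 was -0.98 for the 11 genes on the latter side and -0.10 for the 9 on the DF side. Among the other genes of the list it was -0.89 (945 genes tested) and 0.19 (781 genes). From T1 to T3 the medians were -1.20 and 0.01 for the genes described here and -1.21 and 0.19 for the others. Over all genes tested the median was -0.10 from T2 to T3 and -0.21 from T1 to T3. The helicase class and the side of the list therefore cannot be told apart here. The list was chosen on these same 11 oocytes, so its sides are not independent evidence of a direction.

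Gene symbols were paired with identifiers only through the study's list, so few genes of related pathways could be named. Of 12 genes of oocyte mRNA storage, 2 were named (16.7%). These were EIF4E1B, an oocyte form of the cap-binding protein, with log2 differences of -0.62, -0.45 and -1.07, and PATL2, a translational repressor, with -0.51, 1.4 and 0.89, in the order T1 to T2, T2 to T3 and T1 to T3. Of 13 core splicing factors with other names 0 were named. Of 11 snRNP assembly genes 2 were named (18.2%). PRMT5, which methylates Sm proteins, had log2 differences of -0.18, -1.20 and -1.38, had no counts in T3.2, and turned to 0.89 and 0.41 in the comparisons with T3 when all 15 oocytes were fitted. EIF4E1B was then at -1.20 and -1.65 and PATL2 at 0.65 and 0.36. GEMIN4, a subunit of the SMN complex, had 6, 19, 3 and 10 counts in T2, 0 in all 5 T3 oocytes, and 7, 8 and 3 in T1.3, T1.5 and T1.6 with 0 in the other T1 oocytes. None of the 4 was called by the quasi-likelihood test in any pair.

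Markers were limited in the same way, at 4 of 15 for the oocyte, 1 of 18 for cumulus and granulosa cells, 2 of 14 for leukocytes and 0 of 6 for erythrocytes, too few for a statement on a whole list. FIGLA, KPNA7 and OOSP2 had counts in all 15 oocytes and NLRP5 in 14, and their summed level ran from 2510 to 17300 CPM in T1, 3030 to 9840 in T2 and 3700 to 227000 in T3, the last in T3.1 through OOSP2. FIGLA, an oocyte transcription factor, had differences of the same sign as LSM7 in these pairs, with log2 values of -2.75 ± 1.01 (SE; adjusted p = 0.260) from T1 to T2 and 3.00 ± 1.15 (adjusted p = 0.197) from T2 to T3. The other oocyte markers did not share this pattern. KPNA7 had the opposite signs, at 0.49 and -1.49, NLRP5 was at -0.39 and 0.15, and OOSP2 at -0.08 and -0.15. From T2 to T3 in all 15 oocytes, KPNA7 was at 0.16 and OOSP2 at 3.34. STAR, a steroidogenic gene of follicle cells, had counts in all 15 oocytes, at 103 to 286 CPM in T1, 171 to 335 in T2 and 16.3 to 126 in T3. Its log2 difference from T2 to T3 was -1.27 ± 0.59 (adjusted p = 0.284) by the quasi-likelihood test, and -1.9 with all 15 oocytes. The summed level of CSF1R and SRGN, found in leukocytes, ran from 0 to 1200 CPM in T1, 20.4 to 568 in T2 and 0 to 131 in T3. The part of other cells or of poly(A) tail length in the values above was not tested.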

How the data were processed

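Per the study's methods and labels, single oocytes were lysed, polyadenylated RNA was captured on oligo-dT beads, and amplified cDNA was sequenced as Nextera XT single-end libraries. Reads were trimmed with Trim Galore (0.6.6 in the submitters' processing notes, while the methods name another release), aligned to ARS-UCD1.2 with HISAT2 and quantified in SeqMonk. The authors deposited raw read counts per gene, 1 column per oocyte. Annotation release, strand setting and treatment of duplicates are not given in the sources used here, and there were no molecular identifiers.

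Symbols came from the study's list, where LSM7 and LSM8 had been altered by a spreadsheet and were read back. The genes, classes and lists were chosen with earlier results of these data known. All 20 genes are named. Values in every oocyte are given for the SNRP, LSM and SF3 genes and for the 3 genes with the highest mean CPM in each other class, and the rest are given by range. Counts were fitted in R 4.3.3 with edgeR 4.0.16 (TMM, filterByExpr, quasi-likelihood F-test, time point as the only term, 11 oocytes, all 3 time points in 1 fit), with p-values adjusted by Benjamini-Hochberg over the 10198 genes that passed the filter. Log2 CPM used a prior count of 2. The steps were run on simulated counts whose spread was fixed and not taken from these oocytes. That run checks the code and not the power to find changes here. Alternatives were the likelihood ratio test, DESeq2 1.42.0, RLE factors, no filter, all 15 oocytes, a replicate block, prior counts of 0.5 and 5, leaving out each oocyte in turn and, chosen after seeing the data, leaving out LSM7 or 3 helicases and the likelihood ratio test on all 15 oocytes.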

Additional observations from a re-analysis of the deposited data

Results flagged for a closer look

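In 78 combinations of a time point with a gene or class mean, the gap between the most extreme oocyte and its nearest neighbour was set against the range of the group, and chance alone marks about 1 in 20 such groups. All values are log2 CPM. Among the helicases, DDX39A in T1.4 was at 1.49 while the other T1 oocytes lay between 5.29 and 6.13. In T2, RBM4 in T2.1 was at 6.48 against 5.13 to 5.29, RBM42 in T2.3 at 6.82 against 6.49 to 6.53, and the RBM class mean in T2.1 at 4.89 against 5.24 to 5.29. In T3, SF3B6 in T3.1 was at 1.53 against 8.12 to 9.67. In T3.5, the smallest library, RBM4 was at -0.06 against 4.72 to 6.53, SNRPG at -0.06 against 8.49 to 9.20 and SF3B1 at 3.19 against 7.27 to 8.56. T1.4, T3.1 and T3.5 were outside the fits. The 3 oocytes T2.1, T2.3 and T1.4 had 20, 20 and 18 of the 20 genes detected, T3.1 had 15 and T3.5 had 9.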

How the results depend on the processing

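Of 1020 fitted differences of the 20 genes under 17 alternatives, 957 lay within 1 standard error of the reported value on the same side of the threshold, 9 (LSM7) became calls, 13 lay further away with the opposite sign and the other 41 lay further away. In all, 63 had the opposite sign, most of them within 1 standard error. The likelihood ratio test on all 15 oocytes and the settings without LSM7 or without DDX39B, DDX41 and DDX56 were added after the values were seen. The number of calls among the 20 genes was 1 (LSM7) instead of 0 from T1 to T2 and from T2 to T3 with the likelihood ratio test, with DESeq2 and without the filter on low counts. Leaving out each oocyte in turn gave 0 to 1 calls from T1 to T2 (LSM7 without T1.1), 0 to 1 from T2 to T3 (LSM7 without T1.1 or without T1.2) and 0 to 0 from T1 to T3, and the fits that called LSM7 called 3.72%, 3.12% and 4.01% of all genes. Leaving out T3.2 or T3.4 left a lone T3 oocyte, assumed to vary like the other groups.

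These 13 were as follows. With all 15 oocytes, DDX41 was at -0.27 from T1 to T2, DDX28 at 0.84 and 1.61, DHX58 at 1.12 and 1.84, from T2 to T3 and from T1 to T3, RBM4 at -0.29 from T2 to T3, and RBM42 at 0.10 and LSM7 at -0.55 from T1 to T3. Without T2.1, SF3B4 was at -0.17 from T1 to T2 (-0.17 to 0.90 over the oocytes left out). Without T3.2, RBM4 was at -0.34 from T2 to T3 (-0.34 to 0.85). Without T3.4, SF3B1 was at -0.65 (-0.65 to 0.60), and without T1.1, SNRPE was at 0.43 (-0.67 to 0.43), both from T1 to T3. With the replicate block, SF3B4 was at 0.85 from T1 to T3. The causes were not tested.

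The SNRP and LSM minus DDX and DHX difference changed from T2 to T3 by 2.61 at a prior count of 0.5, 0.93 in the fuller set of 15, 1.62 with medians, 1.47 without LSM7 and 0.46 without LSM7 in all 15, and by 3.24 with only the genes counted in all oocytes, which leave LSM7, LSM8 and SNRPE against DHX58 alone. From T1 to T2 it changed by -1.29 with those 4 genes, and from T1 to T3 by 0.57 with all 15 oocytes, and by 0.60 when LSM7 was also left out. Without DDX39B, DDX41 and DDX56 it was 0.87 from T2 to T3 and 0.11 from T1 to T3 in all 15, and 1.23 from T2 to T3 in the 11 without LSM7 as well. The SNRP and LSM minus RBM difference changed by 0.22 from T1 to T3 with medians and by 0.18 from T2 to T3 without LSM7. Leaving out oocytes in turn gave -0.45 to -0.02, 2.03 to 2.39 and 1.72 to 2.13 for the helicases, and 0.07 to 0.34, 0.41 to 1.34 and 0.63 to 1.56 for the RBM genes.

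Replicate numbers only name animals. With them as a block, 0 of the 20 genes were called in any pair and 0, 1 and 0 of all genes. The deviations of same-numbered oocytes correlated at -0.016 to 0.14 over 6 pairs, and those of other pairs at -0.127 to 0.07 over 32. These correlations cannot decide on pairing, because the deviations of the only 2 T3 oocytes in the fits mirror each other. That the oocytes are not paired rests on the labels, which give each a different animal. Genes with the same prefixes outside the study's list could not be named and were not run. Only 2 T3 oocytes entered the fits, and no library held more than 58 counts of SNRPA or 66 of DDX41.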

Other observations

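The T1 oocytes with the highest LSM7, T1.2, T1.4 and T1.5, also had the highest FIGLA, at 4120, 4670 and 2730 CPM against 78.4, 543 and 430 CPM in T1.1, T1.3 and T1.6. COX6C, a subunit of respiratory complex IV that was looked at after its values were seen, measured 8470, 13800 and 3780 CPM in the same 3 oocytes and 3210, 1020 and 1230 CPM in the others. In T2 it measured 201, 410, 680 and 1070 CPM and in T3.1 to T3.5 86.6, 4020, 5260, 15600 and 4470 CPM. FIGLA measured 17.8, 352, 409 and 214 CPM in T2.1 to T2.4 and 1.92, 1170, 2180, 2740 and 362 CPM in T3.1 to T3.5. In T3.3 and T3.5 COX6C was high while LSM7 was at 88.9 and 32.6 CPM, and in T3.3 FIGLA was high as well. These are values of 3 genes across 15 oocytes that share libraries, and no test was run on them.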
